A study of Pan troglodytes with 6 samples.

Results

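The genes of cholesterol synthesis, of its regulation and of lipoprotein metabolism were described in 2 chimpanzee (Pan troglodytes) tissues, cerebellum and liver. The set was chosen by gene name, with earlier results of these data known. It lists 46 genes, of which 34 had a feature of the array that the platform annotation assigns to that gene alone, out of 12584 genes measured in this way. The other 12 were FDFT1, EBP, SREBF2, APOA1, APOA4, APOC1, APOC3, APOE, APOM, LCAT, LIPC and PLTP; 4 of them occur only in features that name several genes, and none of the 12 is analysed here. Total RNA from 3 cerebellum and 3 liver samples, each labelled a biological replicate, was hybridised to Affymetrix Human Exon 1.0 ST arrays, whose probes were designed on the human genome. In either tissue the labels give a female aged 27 years for replicate 1 and males aged 37 and 30 years for replicates 2 and 3, and they name no treatment. Nothing in the labels says whether the 2 tissues of a replicate number came from one animal.

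Cholesterol is built from acetyl-CoA through the mevalonate pathway, in which squalene is formed, closed to lanosterol and trimmed to cholesterol. When sterols in the membrane of the endoplasmic reticulum fall short, SCAP escorts the SREBP transcription factors to the Golgi for cleavage, and the INSIG proteins hold the complex back when sterols are plentiful. The liver packs lipid with apolipoproteins into particles that circulate in plasma, whereas the brain, behind the blood-brain barrier, makes its own cholesterol and moves it between glia and neurons on particles of its own.

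All 6 arrays hold the same set of values in different orders, with a median intensity of 96.3 and a maximum of 6527, so a difference in total signal between tissues cannot be seen. Defining markers of each labelled tissue were measured and high in it. All 9 measured markers of cerebellar neurons and 5 of 6 markers of astrocytes and Bergmann glia were higher in cerebellum, and all 9 hepatocyte markers were higher in liver. Of 6 oligodendrocyte markers 5 were higher in cerebellum and 1, OPALIN, in liver. Markers of macrophages, endothelium and fibroblasts were also higher in liver, for 10 of 11, 7 of 8 and 6 of 7 genes, with sums from 394 to 729 in cerebellum against 5479 to 9780 in liver, from 135 to 330 against 1982 to 2400, and from 504 to 1255 against 1519 to 4209. The part of these cell types in the differences between tissues was not tested. Liver replicate 3 stood apart from the other livers. All 11 measured markers of macrophages, Kupffer cells and microglia were highest there, as were 6 of 7 markers of fibroblasts and stellate cells. Among the 11, the microglial marker P2RY12 was so only narrowly, at 29.6, 61.9 and 62.7 in liver replicates 1, 2 and 3. In the same array 7 of 9 hepatocyte markers were the lowest of the livers. Summed over each list, macrophage markers reached 5526, 5479 and 9780 in liver replicates 1, 2 and 3, fibroblast markers 1803, 1519 and 4209, and hepatocyte markers 32198, 31288 and 24234. None of these markers was at 0 in liver. Fewer cells of a type and less RNA per cell cannot be told apart in such tissue samples.

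Intensities were compared on the scale log2(intensity + 16.8), with values below 0 set to 0, which understates the change of dim genes; differences are cerebellum minus liver. Of the 34 genes, 21 were higher in liver and 4 in cerebellum, and 9 did not pass the threshold (limma, Benjamini-Hochberg adjusted p under 0.05 over all 15143 features). Over all features 23.9% were higher in liver and 26.7% in cerebellum, 50.6% together, with a median log2 difference of 0.04 against -1.24 for the 34 genes. The tissues did not overlap for 25 of the 34 genes, 21 of them higher on every liver array and 4 on every cerebellum array, against 59.4% of all features together, 28.5% toward liver and 31% toward cerebellum. With the arrays aligned on ribosomal protein and proteasome genes, which moves every difference by 0.43 toward cerebellum, 18 genes were higher in liver and 4 in cerebellum. That alignment raised the share of all calls that lie toward cerebellum from 52.8% to 72.5%. The p values cover the spread between 3 samples per tissue, and since no permutation of 3 against 3 can give a two-sided p under 0.1, none is given.

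**Figure D1:**
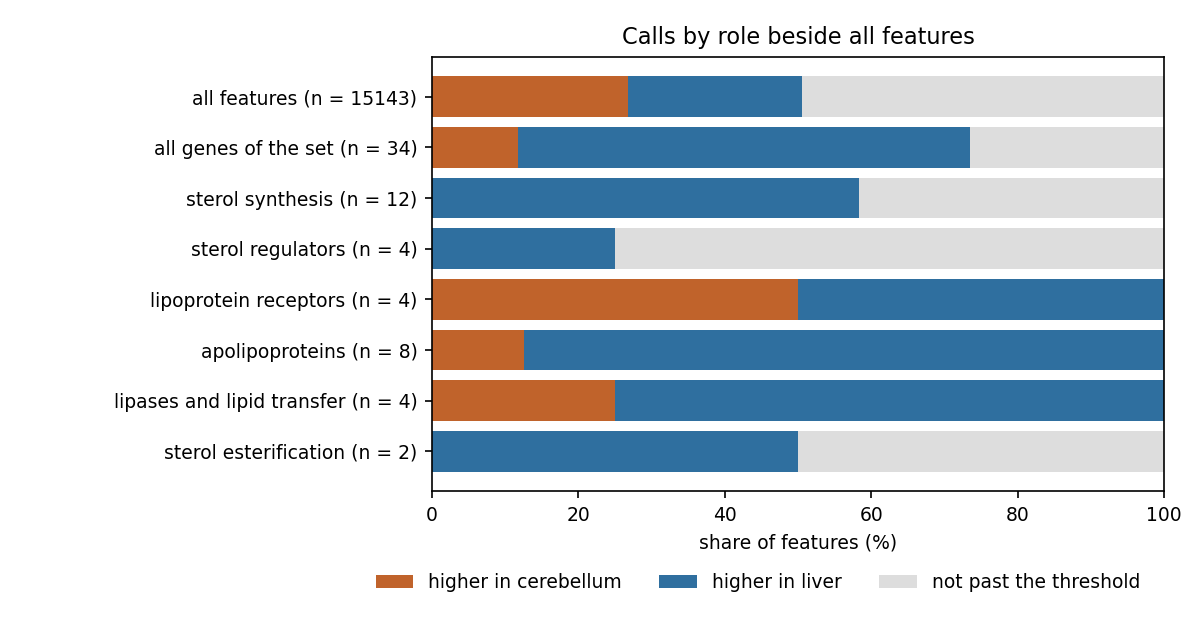
Share of features higher in cerebellum, higher in liver or not past the threshold (limma, adjusted p under 0.05), as a percentage of the features measured, for all features, for the 34 genes and for each role. Calls toward cerebellum came from 2 receptors, 1 apolipoprotein and 1 lipase, and all other calls were toward liver.

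Enzymes of sterol synthesis were higher in liver or did not differ past the threshold. Of 12 measured, 7 were higher in liver and 0 in cerebellum (limma), the latter also 0 at an unadjusted p under 0.05, with a median log2 difference of -1.10 and a range from -3.03 to 0.00018. In a test against a 2-fold difference (limma's treat), 2 of the 7 passed, MSMO1 and DHCR7.

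MSMO1, which removes methyl groups at carbon 4 of the sterol ring, had intensities of 79.2, 198 and 68.5 in cerebellum replicates 1 to 3 and of 963, 1004 and 944 in the livers. The livers lay within a narrow band, well above the cerebella, of which replicate 2 was the highest. This gave a log2 difference of -3.03 (SE, the standard error, 0.33; limma adjusted p = 9.58e-05). NSDHL, which acts in the same demethylation, was at 64.5, 100 and 72.3 in cerebellum and at 213, 326 and 484 in liver (log2 difference -1.85, SE 0.29, limma adjusted p = 8.73e-04). DHCR7, the reductase that completes cholesterol in one branch of the pathway, was at 77.6, 134 and 63.4 in cerebellum and at 279, 471 and 1047 in liver, a log2 difference of -2.36 (SE 0.44, limma adjusted p = 0.00230). The tissues did not overlap for either gene, and liver replicate 3 held the highest value of both. SC5D, the desaturase acting just before DHCR7, was at 498, 447 and 464 in cerebellum and at 1927, 2013 and 895 in liver. Here liver replicate 3 was the lowest liver, still above every cerebellum, and the log2 difference was -1.66 (SE 0.30, limma adjusted p = 0.00194).

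**Figure D2:**
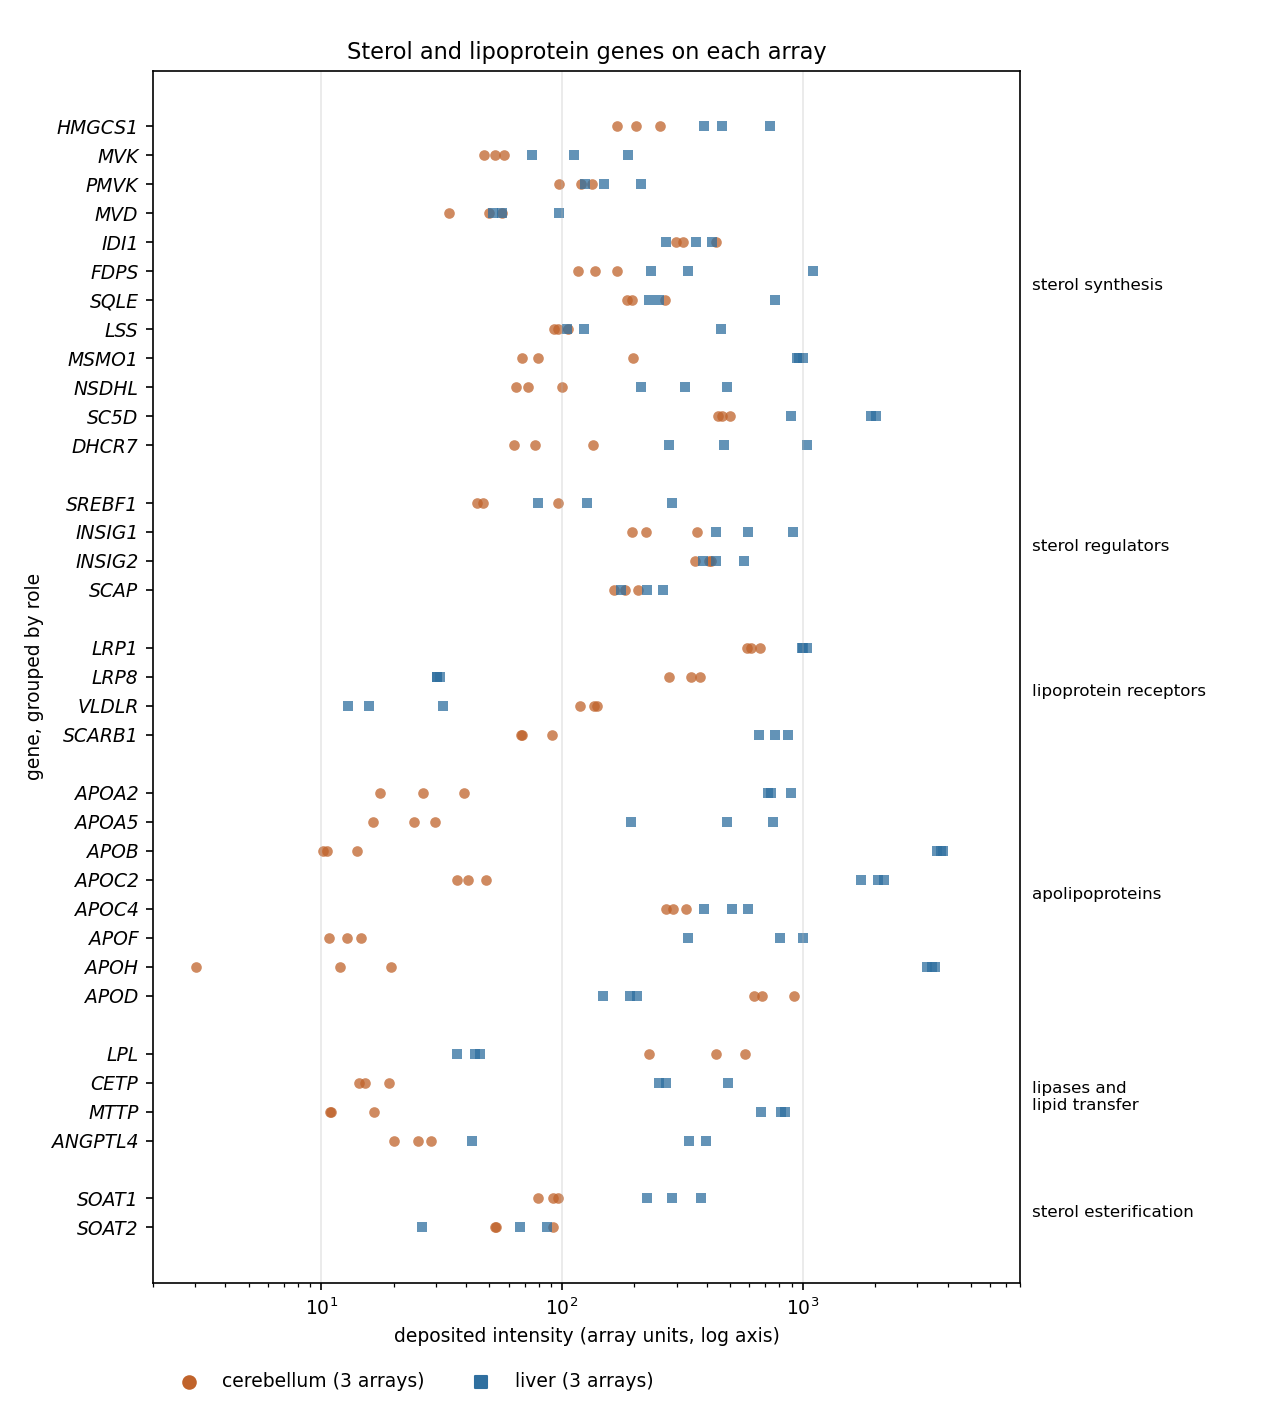
Deposited intensity of each of the 34 genes on each of the 6 arrays (log axis), grouped by role; circles are the 3 cerebellum arrays and squares the 3 liver arrays. The arrays of each tissue lie apart for 25 genes, and APOB and APOH show the widest gap toward liver.

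Of the enzymes upstream of squalene, 3 were called. HMGCS1, which makes HMG-CoA, was at 169, 256 and 203 in cerebellum and at 388, 463 and 733 in liver (log2 difference -1.24, SE 0.26, limma adjusted p = 0.00437), and at -0.81 with arrays aligned on general genes (adjusted p = 0.0212). MVK, mevalonate kinase, was at 47.5, 57.4 and 52.8 against 75.4, 112 and 188 (log2 difference -0.96, SE 0.28, limma adjusted p = 0.0198). That call was lost with arrays aligned on general genes (log2 difference -0.54, limma adjusted p = 0.139), and also without cerebellum replicate 1 or 3 or liver replicate 2 (adjusted p = 0.0653, 0.0582 and 0.0503). FDPS, which makes farnesyl diphosphate, the branch point toward sterols and prenylated proteins, was at 117, 169 and 137 in cerebellum and at 235, 333 and 1108 in liver. Its value in liver replicate 3 was far above the other livers. The log2 difference of -1.57 (SE 0.49, limma adjusted p = 0.0261) was -0.93 without that array (adjusted p = 0.0115), and the call was lost without any 1 of the 3 cerebella (adjusted p from 0.0503 to 0.0813).

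The remaining 5 enzymes did not pass the threshold, and the tissues overlapped for each. IDI1, which isomerises isopentenyl diphosphate, was at 298, 436 and 318 in cerebellum and at 272, 361 and 421 in liver, a log2 difference of 0.00018 with a 95% interval from -0.51 to 0.51. PMVK and MVD, the kinase and the decarboxylase that follow MVK, had log2 differences of -0.41 (95% interval -0.92 to 0.10) and -0.40 (-0.97 to 0.16), near 0 at 0.020 and 0.022 with arrays aligned on general genes. SQLE, squalene epoxidase, was at 196, 186 and 268 in cerebellum and at 231, 253 and 768 in liver. LSS, which closes the epoxide to lanosterol, was at 106, 96.3 and 92.9 against 105, 124 and 457. In both genes liver replicates 1 and 2 lay at or near the cerebella and replicate 3 lay apart. The log2 differences of -0.70 (95% interval -1.65 to 0.25) and -0.80 (-1.85 to 0.24) were -0.16 and -0.19 without liver replicate 3.

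Among the regulators, INSIG1 was higher in liver and the other 3 measured genes did not pass. INSIG1, an endoplasmic reticulum protein whose gene is itself a target of SREBP, was at 223, 362 and 195 in cerebellum and at 436, 593 and 915 in liver. The tissues did not overlap, and the log2 difference was -1.25 (SE 0.31, limma adjusted p = 0.0100), or -0.82 with arrays aligned on general genes (adjusted p = 0.0307). SREBF1, which encodes SREBP-1, the form that leads on fatty acid genes, was at 44.2, 96.1 and 47.0 against 79.3, 128 and 285. Cerebellum replicate 2 lay above liver replicate 1, and the log2 difference of -1.09 missed the threshold (SE 0.42, limma adjusted p = 0.0584). It passed without cerebellum replicate 2 or liver replicate 1 (adjusted p = 0.0407 and 0.0181), without dim features (adjusted p = 0.0472) and with the replicate number as a block (adjusted p = 0.0418), and it was -0.63 without liver replicate 3 (adjusted p = 0.138). INSIG2, the second INSIG protein, was at 410, 357 and 414 against 569, 385 and 437, and SCAP was at 165, 208 and 184 against 263, 225 and 175. Their log2 differences of -0.21 (95% interval -0.65 to 0.23) and -0.22 (-0.67 to 0.22) turned to 0.21 and 0.20 with arrays aligned on general genes.

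Apolipoproteins gave the widest differences of the set. Of 8 measured, 7 were higher in liver and 1, APOD, in cerebellum, with a median log2 difference of -4.34, and for all 8 the tissues did not overlap. APOB, the structural protein of very low density and low density lipoproteins, was at 14.1, 10.6 and 10.2 in cerebellum and at 3611, 3746 and 3812 in liver. The 3 livers differed by little from one another. Its log2 difference was -7.04 (SE 0.16, limma adjusted p = 1.51e-07). APOH, also known as beta-2-glycoprotein I, a plasma protein that binds phospholipid, was at 12, 19.5 and 3.03 against 3446, 3544 and 3278, a log2 difference of -6.97 (SE 0.23, limma adjusted p = 2.16e-07). Since the cerebellum values of both lie near or below the pseudocount, their size depends on it; between pseudocounts of 10.2 and 30.3 APOB ran from -7.42 to -6.49 where arrays were scaled as deposited.

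APOC2, the activator of lipoprotein lipase, was at 36.6, 40.8 and 48.5 in cerebellum and at 1746, 2053 and 2179 in liver (log2 difference -5.10, SE 0.18, limma adjusted p = 2.25e-07). APOA2, a main protein of high density lipoprotein, was at 17.6, 26.4 and 39.3 against 741, 893 and 717 (log2 difference -4.19, SE 0.22). All liver values of these genes were many times those of cerebellum. APOC4 lies next to APOC2 in the chimpanzee gene order of the RefSeq assembly mPanTro3-v2.0, with 0 protein-coding genes between. It had one of the smallest differences called in the set, at 328, 272 and 289 in cerebellum and 510, 590 and 390 in liver. Its log2 difference of -0.70 (SE 0.20, limma adjusted p = 0.0176) did not pass with arrays aligned on general genes (-0.27, adjusted p = 0.449), nor without cerebellum replicate 2 or 3 or liver replicate 2 (adjusted p = 0.0517, 0.0635 and 0.0638).

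A pair of apolipoproteins varied widely among the livers. APOA5, which promotes the clearance of triglyceride-rich particles, was at 16.4, 29.6 and 24.4 in cerebellum and at 750, 484 and 194 in liver (log2 difference -3.44, SE 0.42, limma adjusted p = 1.94e-04). APOF, an inhibitor of the cholesteryl ester transfer protein, was at 14.7, 12.8 and 10.7 against 1003, 806 and 335 (log2 difference -4.50, SE 0.36, limma adjusted p = 1.62e-05). Liver replicate 3 was the lowest of the livers for both and still far above the cerebella. APOD, a lipocalin made by glia and fibroblasts rather than a typical plasma apolipoprotein, went the other way at 923, 676 and 628 in cerebellum and 191, 148 and 206 in liver. Its log2 difference was 1.93 (SE 0.21, limma adjusted p = 1.03e-04). Cerebellum replicate 1, the highest for APOD, was also the highest of the cerebella for all 6 measured oligodendrocyte markers, whose sum was 6053 there against 1961 and 2542 in replicates 2 and 3; their part in the result was not tested, and without that array the log2 difference of APOD was 1.76 (limma adjusted p = 5.90e-04).

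Enzymes and transfer proteins that act on lipoproteins were higher in liver in 3 of 4 cases. MTTP, which loads lipid onto APOB in the endoplasmic reticulum, was at 10.9, 16.5 and 11 in cerebellum and at 842, 670 and 812 in liver (log2 difference -4.74, SE 0.18, limma adjusted p = 3.07e-07). CETP, which exchanges cholesteryl esters and triglycerides between particles in plasma, was at 19.1, 15.2 and 14.4 against 254, 270 and 489 (log2 difference -3.37, SE 0.25, limma adjusted p = 1.12e-05). Neither gene overlapped between tissues. ANGPTL4, a secreted inhibitor of lipoprotein lipase, was at 28.5, 25.1 and 20.1 in cerebellum and at 336, 396 and 42.2 in liver. Liver replicate 3 came close to the cerebella, and the log2 difference was -2.31 (SE 0.64, limma adjusted p = 0.0163), with -3.21 in its absence (adjusted p = 8.32e-06). The call was lost without cerebellum replicate 3, liver replicate 1 or liver replicate 2 (adjusted p = 0.0519, 0.0570 and 0.0638).

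LPL, lipoprotein lipase, which releases fatty acids from circulating triglyceride and is known to be low in adult liver, was the exception. It was at 230, 578 and 436 in cerebellum and at 36.6, 45.5 and 43.4 in liver, a log2 difference of 2.79 (SE 0.30, limma adjusted p = 1.01e-04). The cerebella spread widely, with replicate 1 the lowest, and all lay above the livers. Of the acyltransferases that esterify cholesterol, SOAT1 was higher in liver at 377, 286 and 226 against 95.9, 92.0 and 79.6 in cerebellum (log2 difference -1.54, SE 0.21, limma adjusted p = 3.87e-04). SOAT2, known as the form of hepatocytes and gut, was at 52.9, 53.3 and 91.7 in cerebellum and at 86.8, 67.0 and 26.2 in liver. The tissues overlapped, and its log2 difference of 0.17 (95% interval -0.61 to 0.94) was -0.20 without liver replicate 3.

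Receptors split between the tissues, and all 4 passed the threshold. LRP8, the apolipoprotein E receptor 2, which in brain also carries the reelin signal, was at 373, 277 and 343 in cerebellum and at 30.2, 31.1 and 30.2 in liver (log2 difference 2.87, SE 0.17, limma adjusted p = 3.28e-06). VLDLR, the other reelin receptor, was at 136, 119 and 140 against 15.8, 12.9 and 32.1 (log2 difference 2.03, SE 0.22, limma adjusted p = 9.52e-05). Both were dim on every liver array. SCARB1, which takes cholesteryl ester up from high density lipoprotein, was the reverse at 68.4, 90.8 and 67.8 in cerebellum and 657, 870 and 767 in liver (log2 difference -3.08, SE 0.19, limma adjusted p = 3.52e-06). LRP1, a large endocytic receptor for remnant particles, was clearly present in either tissue, at 586, 662 and 608 against 1043, 1000 and 993. Its log2 difference of -0.70 (SE 0.16, limma adjusted p = 0.00577) was -0.27 with arrays aligned on general genes (adjusted p = 0.379).

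**Figure D3:**
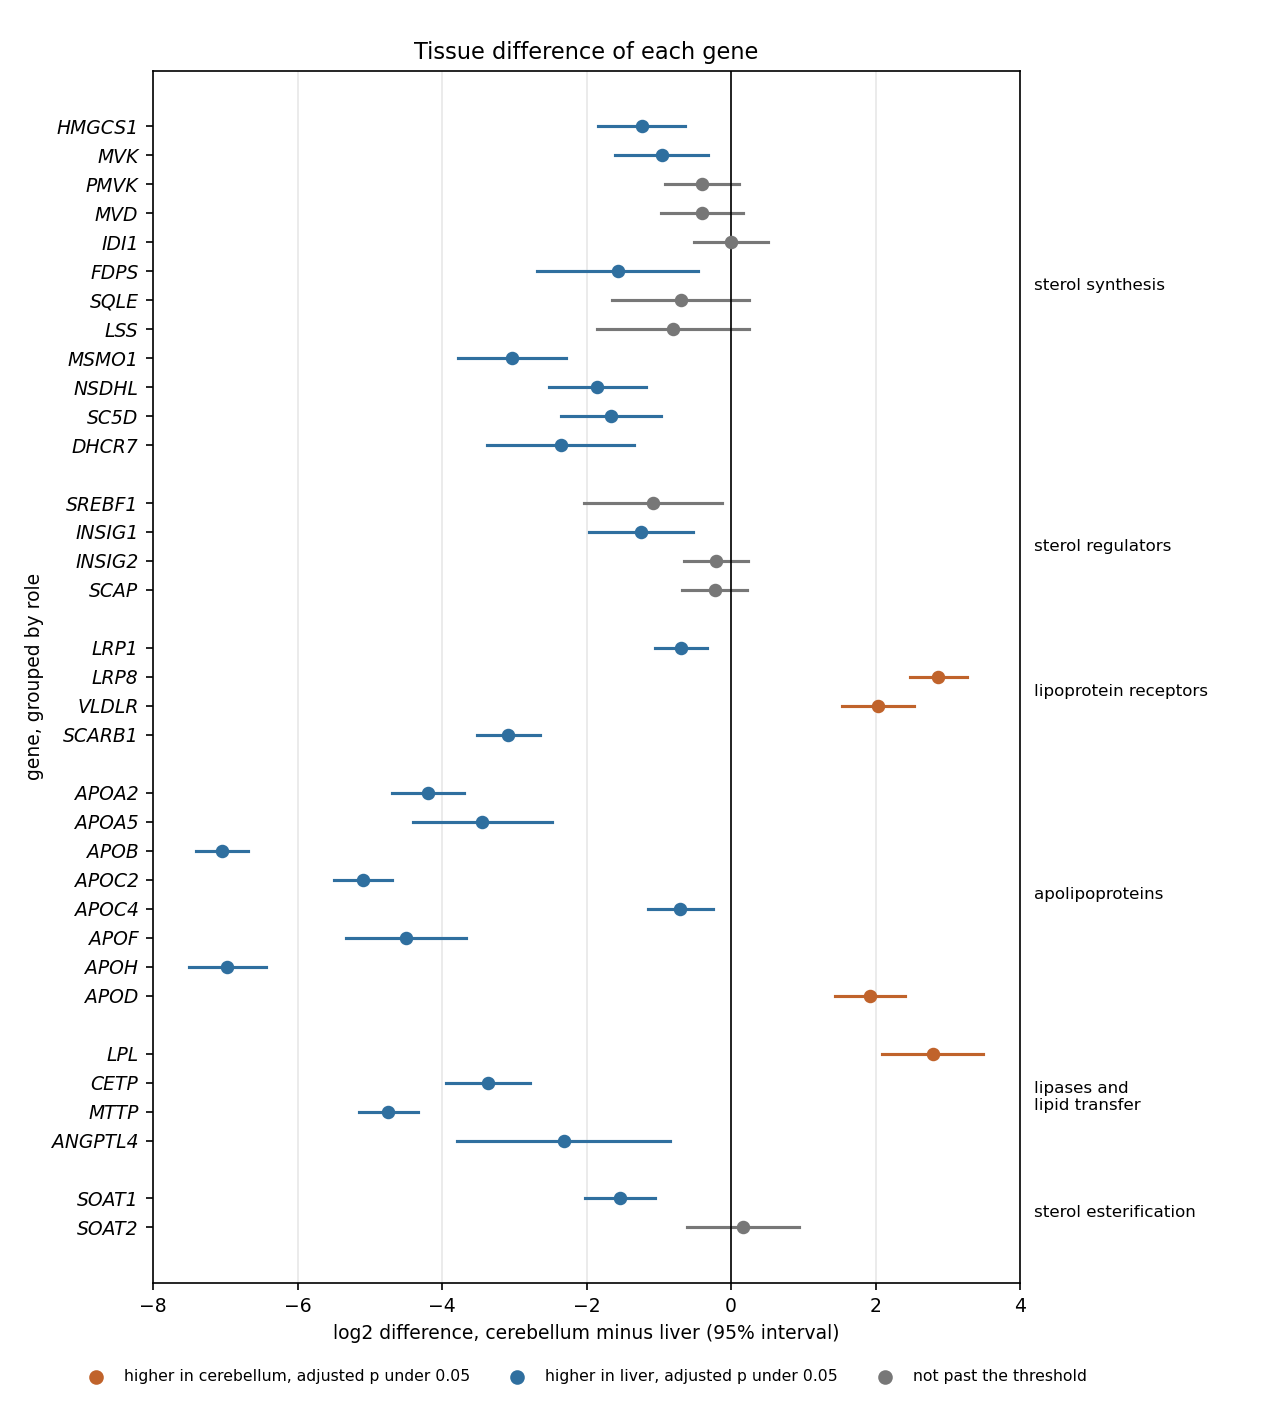
Log2 difference of each gene, cerebellum minus liver, on the log2(intensity + 16.8) scale, with its 95% interval from the limma fit; colour gives the call at an adjusted p under 0.05. LRP8, VLDLR, APOD and LPL lie to the right of 0, and APOB and APOH lie furthest to the left.

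Within the liver, the enzymes of sterol synthesis had a wider median range than all features. That range over the 3 livers was 1.14 on the log2 scale for the 12 enzymes, against 0.49 for all features. It was 0.79 for the 4 regulators and 0.37 for the 8 apolipoproteins. For esterification genes it was 0.98, for lipases and lipid transfer 0.61 and for receptors 0.23. Outside the set it was 2.12 for fatty acid synthesis, 0.81 for sterol transport and turnover and 0.63 for other lipoprotein proteins and lipases. Other receptors had 0.56, other sterol and isoprenoid enzymes 0.40, and sterol sensors and nuclear regulators 0.34. Liver replicate 3 was the highest liver for 9 of the 12 enzymes, against 34.5% of all features. Liver replicate 1, labelled female, was the lowest for 8, against 35.5% of all features. Sex, age and sample cannot be told apart there. An array that is the highest for a gene cannot be its lowest, so these counts are not independent of each other. Against the mean of the other livers, replicate 3 lay higher by 1.92 for FDPS, 1.86 for LSS, 1.60 for SQLE and 1.48 for DHCR7 (log2), which ranked 79, 88, 148 and 180 of 15143 features in that shift. The enzymes that did not follow were PMVK, MSMO1 and SC5D, at -0.12, -0.06 and -1.12. SREBF1 and INSIG1 lay higher in replicate 3 by 1.36 and 0.83, while INSIG2 and SCAP lay at -0.10 and -0.44. With 3 livers there is no test of 1 array against the others, and these values are a description.

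Genes of fatty acid synthesis, which are not in the set but are known targets of SREBP-1, showed the same liver apart. Any part of SREBP-1 in these shifts was not tested. They are a list of related genes, and those named here were chosen after their values were seen, apart from ACACB and LPIN1. Liver replicate 3 was the highest liver for 11 of 12 measured, and for 8 of them it exceeded both other livers by at least 2-fold on the log2 scale used, as it did for 4 of the 12 sterol enzymes and for 2.17% of all features. SCD, the stearoyl-CoA desaturase, was at 51.0, 163 and 2673 in the livers, which was the largest shift of liver replicate 3 among all 15143 features. FASN, fatty acid synthase, was at 125, 159 and 1192, and FADS2, a desaturase of polyunsaturated fatty acids, was at 54.9, 87.5 and 707. ACACB, the acetyl-CoA carboxylase of mitochondria, moved little, at 920, 666 and 939. LPIN1, a phosphatidate phosphatase, was the gene of the list for which replicate 3 was not the highest, at 310, 181 and 189.

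Other genes of the set lay higher or lower in liver replicate 3. CETP was above the mean of the other livers by 0.86 (log2), and VLDLR, dim on every liver array, by 0.65. ANGPTL4 had a shift of -2.69 against the other livers on the log2 scale, the 12th lowest of all features, and APOA5, APOF, SC5D and SOAT2 lay at -1.56, -1.38, -1.12 and -1.11. Outside sterol synthesis and its regulators, APOB, APOH, MTTP, SCARB1, LRP1, LRP8 and LPL shifted by at most 0.11 in either direction. The remaining genes there lay between, with SOAT1 at -0.51, APOC4 at -0.47, APOA2 at -0.18, APOC2 at 0.20 and APOD at 0.27. In that array hepatocyte markers as a list had a median shift of -0.15, macrophage markers of 0.80 and fibroblast markers of 1.66. The part of these cell types in the shifts was not tested. Without liver replicate 3 the set still held 21 genes higher in liver and 4 in cerebellum.

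**Figure D4:**
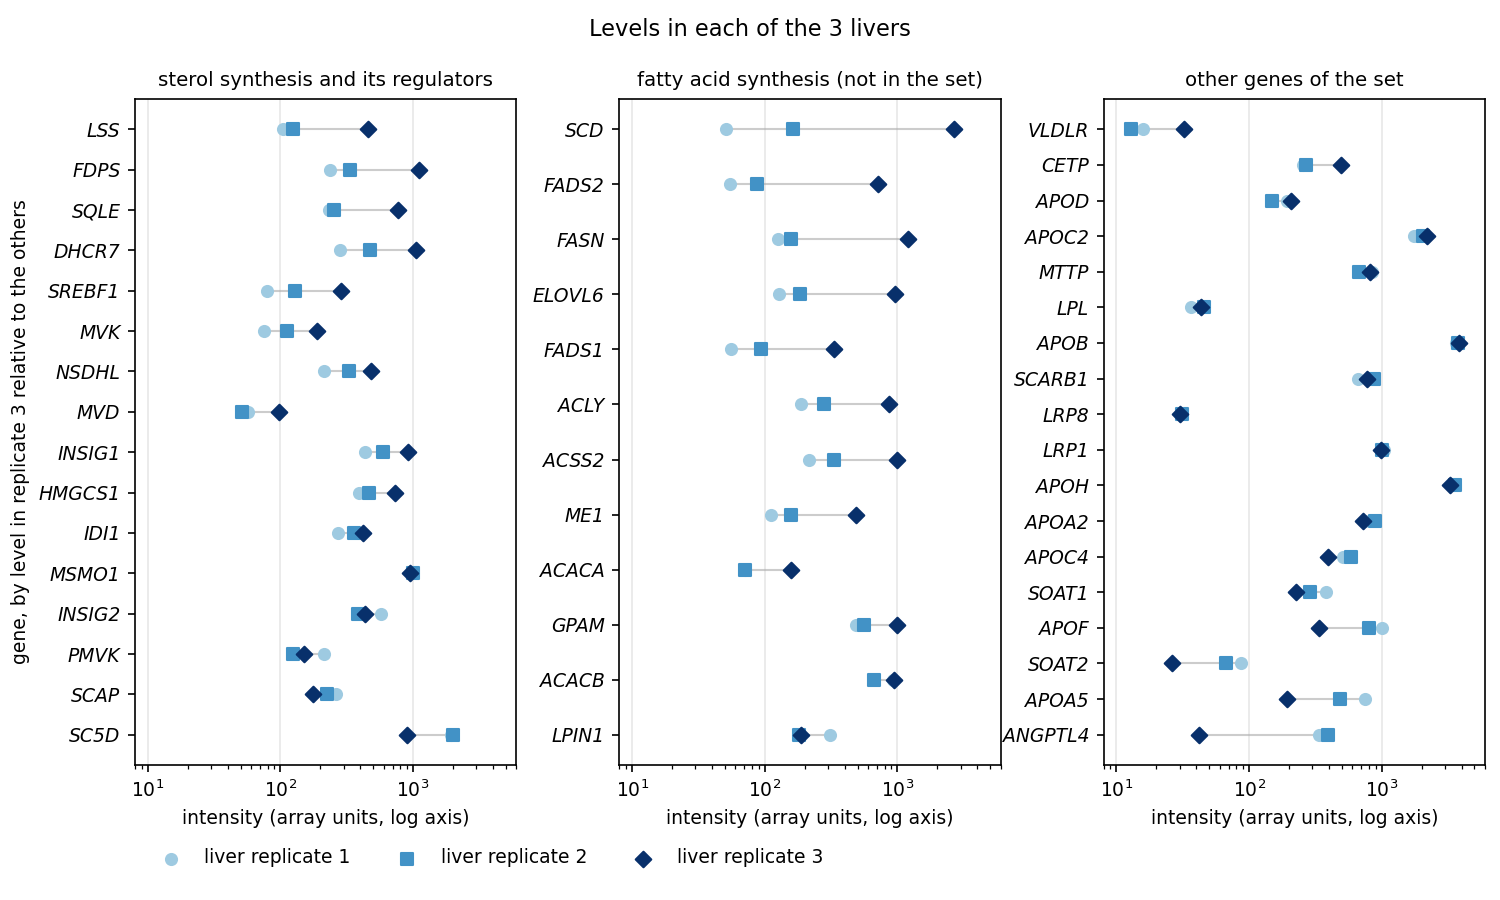
Intensity in each of the 3 livers (log axis) for sterol synthesis and regulator genes, for fatty acid synthesis genes and for the other genes of the set, ordered by the level in liver replicate 3 relative to the other livers. Replicate 3 (diamonds) is the highest for 9 of 12 sterol enzymes and 11 of 12 fatty acid genes, and the lowest for APOA5, APOF, SOAT2 and ANGPTL4, among others.

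Among the cerebella, replicate 2 was the highest for 8 of 12 sterol enzymes and 3 of 4 regulators, against 39.2% of all features. The shift was widest for MSMO1, at 1.25 above the other cerebella and 77th among 15143 features. DHCR7, SREBF1 and INSIG1 lay higher there by 0.79, 0.86 and 0.75. LPL lay higher in replicate 2 by 0.83. In the same array 5 of 6 astrocyte markers, 8 of 11 macrophage and microglia markers, 7 of 8 endothelial, 5 of 7 fibroblast and 6 of 9 neuron markers were the highest of the cerebella, while oligodendrocyte markers were highest there for 0 of 6, with a median shift of -0.37. Their summed intensities in cerebellum replicates 1, 2 and 3 were 7331, 12245 and 9015 for astrocytes, 548, 729 and 394 for macrophages and microglia, 152, 330 and 135 for endothelium, 534, 1255 and 504 for fibroblasts, and 16916, 18672 and 17356 for neurons, and no marker of these lists was at 0. The part of these cell types in the shifts was not tested. Without cerebellum replicate 2, 20 genes of the set were higher in liver and 4 in cerebellum.

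Related genes outside the set were counted from 6 lists, to be read beside the 23.9% of all features called toward liver and the 26.7% toward cerebellum. Of 7 other enzymes of sterol and isoprenoid synthesis, 3 were higher in liver and 1 in cerebellum, with a median log2 difference of -0.07. That is a share called near the 50.6% of all features, and the median was -0.48 without dim features and 0.36 with arrays aligned on general genes, where 2 were higher in liver and 3 in cerebellum. TM7SF2, a sterol reductase, had a difference of -2.17 and, like MSMO1, its highest cerebellum value in replicate 2 (95.4, 230 and 113), while DHDDS, which makes dolichol, was higher in cerebellum by 0.97. Of 6 sterol sensors and nuclear regulators, 3 were higher in liver and 1 in cerebellum. RXRA, the shared partner of lipid-sensing nuclear receptors, had a difference of -3.37, and MBTPS1, the Site-1 protease that cleaves SREBP, was higher in cerebellum by 0.80. Of 17 genes of sterol transport and turnover, 8 were higher in liver and 2 in cerebellum, with CYP27A1, a sterol hydroxylase, at -4.39 and ABCG4, a sterol exporter of neurons and glia, at 1.87.

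Of 12 other lipoprotein proteins and lipases, 8 were higher in liver and 0 in cerebellum (limma; 1 at an unadjusted p under 0.05, APOO, named for that count), and PON1, an esterase carried on high density lipoprotein, had a difference of -5.68. Of 14 other receptors of the LDL receptor family and scavenger receptors, 5 were higher in liver and 4 in cerebellum, against 23.9% and 26.7% of all features. Without dim features, 6 of 11 were higher in liver and 2 in cerebellum. With arrays aligned on general genes, 5 of 14 were higher in liver and 6 in cerebellum. The fatty acid transporter CD36 had a difference of -4.24, and LRP1B, a large receptor related to LRP1, one of 1.88. Of the 12 fatty acid synthesis genes, 4 were higher in liver, led by ACACB at -3.78, and 2 in cerebellum, led by LPIN1 at 0.85, whose call was lost without cerebellum replicate 2 or liver replicate 2 (limma adjusted p = 0.0510 and 0.0586). Without liver replicate 3 the fatty acid list held 4 genes higher in liver and 5 in cerebellum, and its median log2 difference moved from -0.34 to 0.46.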

How the data were processed

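TRIzol extraction, ribosomal RNA reduction and biotinylated sense-strand DNA come from the labels' protocols, and the submitters' processing notes name GCOS with no version. The authors deposited linear intensities whose sorted values are identical on all 6 arrays, as after quantile normalization, and 93 per array are below 0. How background was handled and probes were summarised is not given in the sources used here. Genes came from the platform annotation, using features with 1 symbol; 3 measured genes also occur in features with several symbols, which were not used. The log2(intensity + 16.8) values, whose pseudocount is the 10th percentile, were fitted for all 15143 features in R 4.3.3 by limma 3.58.1. This used lmFit and eBayes with two-sided tests and no block. The code was also run on simulated data with independent noise and far fewer changed features than here. That run cannot give the error rate of the calls reported. The members, roles and lists were chosen with earlier results of these data known. Every member was named; of each related list, the called gene with the largest difference in each direction. Depth has no counterpart on arrays, and the number of arrays limits the precision. A planned search of promoter motifs was not run. Alternatives were other pseudocounts, a filter on dim features, alignment on 29 general genes, a replicate block, a variance trend, treat, and each array left out.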

Additional observations from a re-analysis of the deposited data

How the results depend on the processing

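The count of genes higher in cerebellum was 4 under all 13 alternatives. The count higher in liver ran from 17 to 21 with 1 array left out, was 18 with arrays aligned on general genes, 22 with the replicate block and 22 without dim features, and was 11 in a test against a 2-fold difference. Of 440 values of single genes under an alternative, 403 kept direction and side of the threshold, 25 lost the call, 4 gained it (all of SREBF1) and 8 changed sign, none of them called. With arrays aligned on general genes, INSIG2 was at 0.21, MVD at 0.022, PMVK at 0.020 and SCAP at 0.20. With 1 array left out, IDI1 ran from -0.16 to 0.14 and SOAT2 from -0.20 to 0.43. Of the 25 called genes, 20 kept their call under every alternative but the 2-fold test. The other 5 were MVK, FDPS, APOC4, ANGPTL4 and LRP1, and the cause was not tested. The 2-fold test left 2 of 7 sterol enzymes, and 0 regulators and 0 esterification genes called.

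Replicate numbers, with their sex and age, were shared between tissues in the labels, which do not say that the samples are paired. The main fit therefore used no block. Same-numbered deviations correlated at 0.11, 0.16 and -0.14 over all features. These values cannot settle the pairing, since deviations in different tissues of an animal need not follow one another. The replicate block changed the call of SREBF1 (adjusted p = 0.0418) and of no other gene of the set, and cerebellum replicate 3 correlated best with liver replicate 1. Over the alternatives, calls toward liver and toward cerebellum ran from 1 to 3 and 0 to 3 for the other sterol enzymes, 7 to 9 and 1 to 5 for sterol transport, 3 to 8 and 0 to 1 for other lipoprotein genes, 5 to 6 and 2 to 6 for other receptors, 3 to 4 and 0 to 1 for sensors, and 2 to 5 and 0 to 5 for fatty acid synthesis. The choice of feature for a shared symbol could not be varied, since 0 genes of the set had several features. Probes designed on human sequence limit the comparison of one gene with another, and signals of single-digit to low double-digit intensity carry little information on order.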

Other observations

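Liver replicate 3 was the lowest liver for 5 of 12 other lipoprotein proteins and lipases and the highest for 3, and the lowest for 8 of 17 genes of sterol transport and turnover and the highest for 6, against 37.4% lowest and 34.5% highest over all features. Single genes of these lists, picked after their values were seen, lay apart in either direction. LIPG, an endothelial lipase, was at 450, 417 and 122 in liver replicates 1, 2 and 3, and LIPA, the lysosomal acid lipase, was at 923, 762 and 1673. CYP7A1, which opens bile acid synthesis, was at 39.1, 345 and 23.2, so that replicate 2 stood apart there.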
